A study of Homo sapiens with 12 samples.

Results

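The genes described here make cholesterol, sense it, and move it, 30 in all. They were listed as sterol synthesis enzymes, sterol sensors and sterol carriers, with earlier results of these data known. Their counts, set beside those of all genes below, are therefore a description and no independent test of the set. Each gene was read from its brightest probe set among those annotated to that gene alone, and 26 of the 30 were tested among 11774 genes. The others were CYP51A1, whose 2 probe sets also carry another gene's symbol, FDFT1, with no probe set of its own in the annotation used here, and MVD and ABCA1, whose probe sets all lay below the filter on dim signals (a mean log2 signal of 3.78). MVD, the decarboxylase of the mevalonate pathway, had a mean of 0.46, and the brightest of 4 probe sets of ABCA1, a cholesterol exporter, had 2.67. Those 4 genes were not analysed further. Every tested member lay above the filter in every group, with the lowest group mean at 4.82 for SREBF2, so no member was let in by a treated group alone.

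RNA came from SH-SY5Y, a human neuroblastoma cell line with neuron-like features, and was measured on 12 Affymetrix arrays in 4 groups of 3. Per the labels, the cells had oligomeric amyloid-β (Aβ, the peptide of Alzheimer's plaques) with 6 h of incubation, fibrillar Aβ with 24 h of incubation, or the control of the same hours. No dose, vehicle or genetic change is named, and all groups share the line and its growth medium. Aggregate form and hours always changed together, so they cannot be told apart, and the labels do not tell whether the hours are those of the peptide or of the cells. Separate cultures are not named for the replicates either, so the p-values below measure only the spread between these samples.

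Cholesterol is built from acetyl-CoA by way of mevalonate, isoprenoid diphosphates, squalene and lanosterol. The transcription factor SREBP2 (gene SREBF2) sits in the endoplasmic reticulum bound to SCAP, and INSIG proteins hold this pair there while sterols are plentiful. When sterols run low the pair leaves, SREBP2 is cut, and its freed part switches on nearly every enzyme of the route together with INSIG1 itself, while the sterol-activated LXR receptors drive export through ABCA1 and curb uptake through MYLIP.

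The array medians lay between 3.89 and 4.12 on the log2 scale. Precision is limited by having 3 arrays a group. Among noradrenergic neuroblastoma markers 6 were above the filter, among them GATA3 at 12.1 and PHOX2A at 10.7, while TH was at 0.73. All 4 mesenchymal markers were above it as well (COL1A1, COL1A2, DCN and LUM, with LUM at 9.51). Their summed log2 level was 10.62 to 10.86 in the fibrillar arrays and 10.62 to 11.03 in the 24 h controls, and none of the 4 passed the test between those groups. Of 9 epithelial, blood, endothelial and glial markers only EPCAM (4.53) and PECAM1 (4.10) were above it.

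With fibrillar Aβ, 8 of the 26 sterol genes rose against the 24 h controls and none fell. The steepest were HMGCS1, which makes the precursor of mevalonate, at 2.57-fold, INSIG1 at 2.12-fold and MSMO1, which removes methyl groups from the sterol ring, at 2.04-fold. Of 17 enzymes tested 6 rose, ACAT2, HMGCS1, IDI1, SQLE, MSMO1 and SC5D, and 11 did not pass, among them DHCR7 of the last step. The sterol carrier STARD4 rose as well. A call means a limma adjusted p under 0.05 over all genes tested. Of all genes 0.798% rose and 0.391% fell by it, 94 and 46 genes (143 and 23 after each array was centred on its median). The fibrillar values lay wholly above the control values for 9 members and wholly below for 2, where 10.9% and 8.73% of all genes did. The median change over the 26 genes was 0.27, with a range of −0.22 to 1.36, against −0.00053 over all genes, and 21 of the 26 changes were above 0 and 5 below, against 49.9% and 50.1% over all genes.

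**Figure D1:**
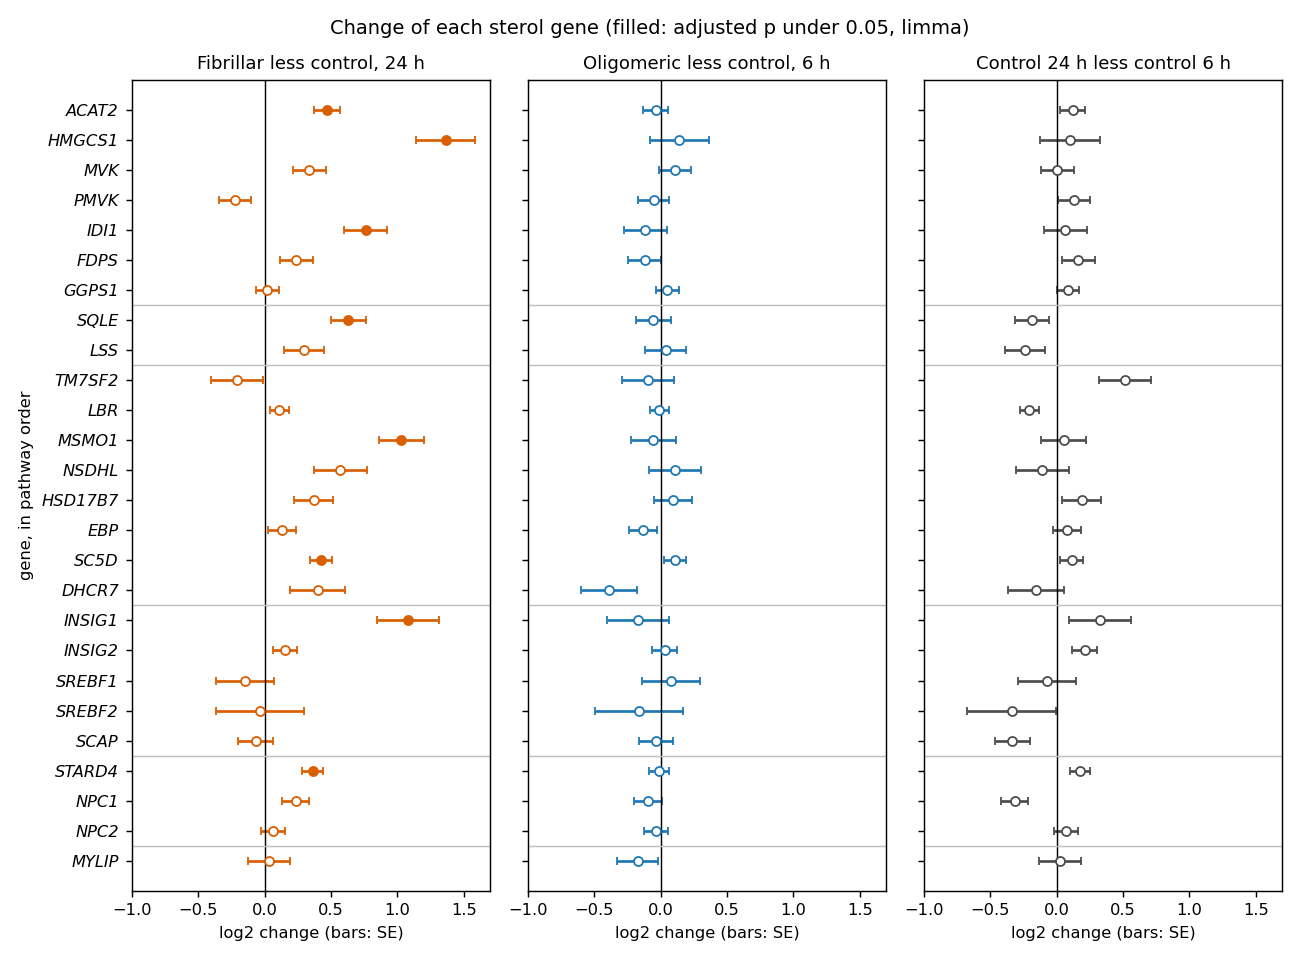
Log2 change with its standard error (bars) for each of the 26 sterol genes, in pathway order from ACAT2 at the top, for fibrillar less control at 24 h (left), oligomeric less control at 6 h (middle) and the 24 h less the 6 h controls (right). Filled points passed an adjusted p of 0.05 by limma. The 8 filled points are all in the left panel, up to 1.36 for HMGCS1, and grey lines part the enzyme groups.

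The route opens with ACAT2, the cytosolic thiolase that joins acetyl-CoA units. Its log2 signal was 9.80, 9.39 and 9.53 in fibrillar replicates 1, 2 and 3 and 9.09, 9.19 and 9.03 in the 24 h controls, so the groups did not overlap. ACAT2 rose by 0.47 (SE 0.10, adjusted p = 0.0321 by limma). At the next step HMGCS1 read 9.67, 8.31 and 9.23 with fibrils and 7.65, 7.76 and 7.71 in the controls, with all 3 fibrillar arrays above them but spread over a range of 1.36. HMGCS1 rose by 1.36 (SE 0.22, adjusted p = 0.00995 by limma), and its mean was 9.07 ± 0.69 (SD, n = 3) against 7.71 ± 0.06.

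The kinases that follow did not pass. MVK, mevalonate kinase, was at 7.15, 7.30 and 7.27 with fibrils and 6.995, 7.050 and 6.672 in the controls. The groups did not overlap, but the change of 0.34 (SE 0.12) missed the threshold (adjusted p = 0.218 by limma). PMVK, the kinase after it, had the lowest change of the 26, −0.22 (SE 0.12, adjusted p = 0.435), with fibrillar values of 8.23, 8.49 and 8.40 all below the controls of 8.52, 8.73 and 8.54.

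IDI1 isomerises the isoprenoid unit that all later steps use, and it rose. Its values were 10.37, 9.41 and 9.81 with fibrils and 9.10, 9.14 and 9.07 in the controls, again with groups apart. The change was 0.76 (SE 0.16, adjusted p = 0.0366 by limma). FDPS, which joins these units into farnesyl diphosphate, had 10.86, 10.23 and 10.49 against 10.25, 10.29 and 10.32, so fibrillar replicate 2 lay below every control, and the change of 0.24 (SE 0.12) did not pass. GGPS1, at the branch towards protein prenylation, differed by 0.02 (SE 0.09, 95% interval −0.16 to 0.20).

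SQLE, squalene epoxidase and a slow step of the later route, rose by 0.63 (SE 0.13, adjusted p = 0.0341 by limma). It read 9.84, 9.11 and 9.48 with fibrils and 8.87, 8.89 and 8.79 in the controls. LSS, which closes squalene epoxide into lanosterol, had 8.47, 7.67 and 8.20 against 7.93, 7.68 and 7.83. Its groups overlapped and its change of 0.30 (SE 0.15) did not pass.

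Among the enzymes that turn lanosterol into cholesterol, MSMO1 rose most, by 1.03 (SE 0.17, adjusted p = 0.00995 by limma). Its fibrillar values were 10.58, 9.62 and 10.25 and its controls 9.10, 9.18 and 9.08. SC5D, a sterol desaturase, rose by 0.42 (SE 0.08, adjusted p = 0.0287), from 8.46, 8.39 and 8.43 to 8.92, 8.73 and 8.89. In both genes the lowest fibrillar array was above the highest control. NSDHL and HSD17B7, which act with MSMO1 to strip methyl groups, had changes of 0.57 (SE 0.20) and 0.37 (SE 0.15) that did not pass, with replicate 1 of the fibrillar group well above the controls and replicate 2 inside them. The probe set of HSD17B7 is marked by the array's maker as open to cross-hybridization, as is that of IDI1.

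The other 4 of this stretch did not pass either. DHCR7, the reductase of the last step, differed by 0.40 (SE 0.21), EBP, a sterol isomerase, by 0.13 (SE 0.11) and LBR, a reductase that also anchors lamin B, by 0.11 (SE 0.07). TM7SF2, the reductase that can stand in for LBR, had the lower mean with fibrils, −0.20 (SE 0.20), and overlapping groups.

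Of the sensors, INSIG1 rose by 1.08 (SE 0.23, adjusted p = 0.0376 by limma). Its values were 10.07, 8.71 and 9.58 with fibrils and 8.41, 8.50 and 8.21 in the controls. INSIG2, its paralog, which is known to depend less on SREBP, read 8.16, 8.13 and 8.01 against 7.93, 7.80 and 8.10, a change of 0.15 (SE 0.09, adjusted p = 0.506). The transcription factor genes themselves and their escort did not pass: SREBF2 differed by −0.03 (SE 0.33), SREBF1 by −0.15 (SE 0.22) and SCAP by −0.07 (SE 0.13). For SREBF2 the 95% interval, −0.74 to 0.67, is wide, so a change of the size seen in SQLE was not detectable.

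STARD4, which carries cholesterol through the cytosol, rose by 0.36 (SE 0.08, adjusted p = 0.0376 by limma), from 9.36, 9.42 and 9.50 to 9.84, 9.71 and 9.82. It was the riser with the smallest change and the narrowest fibrillar range, 0.13. NPC1 and NPC2, which release cholesterol from lysosomes, differed by 0.23 (SE 0.10) and 0.07 (SE 0.09), and MYLIP, the ligase that marks lipoprotein receptors for breakdown, by 0.04 (SE 0.16). None of these 3 passed.

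**Figure D2:**
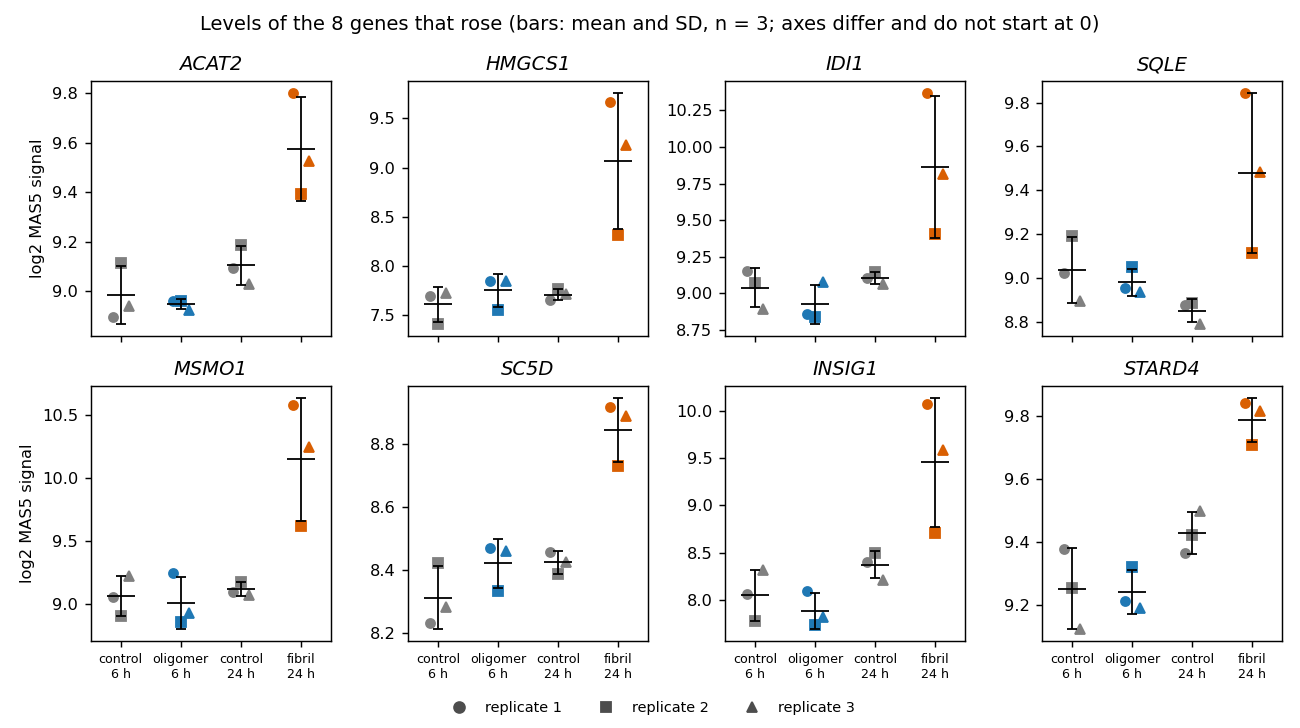
Log2 MAS5 signal of the 8 sterol genes that rose, by array (points, with replicate 1 as a circle, 2 as a square and 3 as a triangle) with the mean and SD of each group of 3 arrays (bars). In each panel the 3 fibrillar arrays lie above the 24 h controls, and replicate 1 is the highest and replicate 2 the lowest of them, as in HMGCS1 with 9.67 and 8.31.

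For the 4 risers with the largest changes, the 250 bases before the transcription start are given to show which promoter elements stand near these starts. They are read 5′ to 3′ along the gene from RefSeq on GRCh38.p14, for the start that lies furthest upstream where a gene has several. HMGCS1 is at chr5:43313413-43313662 on the minus strand, INSIG1 at chr7:155297628-155297877 on the plus strand, MSMO1 at chr4:165327419-165327668 on the plus strand and IDI1 at chr10:1056705-1056954 on the minus strand. Capitals mark the NF-Y box CCAAT and the GC box GGGCGG, searched on both strands, so that ATTGG and CCGCCC are the same boxes read backwards.
HMGCS1: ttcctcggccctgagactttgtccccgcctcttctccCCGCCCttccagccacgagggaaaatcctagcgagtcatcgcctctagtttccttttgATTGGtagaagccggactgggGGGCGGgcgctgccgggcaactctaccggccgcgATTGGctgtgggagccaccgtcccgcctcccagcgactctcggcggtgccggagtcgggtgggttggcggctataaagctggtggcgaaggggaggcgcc
INSIG1: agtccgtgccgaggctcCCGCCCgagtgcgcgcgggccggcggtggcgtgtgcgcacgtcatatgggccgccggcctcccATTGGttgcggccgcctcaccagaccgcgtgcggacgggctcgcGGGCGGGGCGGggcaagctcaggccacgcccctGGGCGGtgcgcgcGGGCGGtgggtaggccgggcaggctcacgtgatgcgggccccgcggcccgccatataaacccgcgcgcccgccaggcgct
MSMO1: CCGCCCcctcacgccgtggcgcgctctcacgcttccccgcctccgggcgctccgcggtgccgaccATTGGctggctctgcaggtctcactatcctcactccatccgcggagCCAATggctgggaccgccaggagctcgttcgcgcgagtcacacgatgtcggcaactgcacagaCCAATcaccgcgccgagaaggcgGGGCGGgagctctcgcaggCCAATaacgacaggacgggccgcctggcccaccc
IDI1: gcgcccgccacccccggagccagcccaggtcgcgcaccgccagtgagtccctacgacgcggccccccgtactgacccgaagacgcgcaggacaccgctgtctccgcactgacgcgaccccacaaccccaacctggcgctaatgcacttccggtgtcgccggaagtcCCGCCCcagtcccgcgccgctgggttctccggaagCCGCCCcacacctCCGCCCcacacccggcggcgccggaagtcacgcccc
MSMO1 holds 4 CCAAT boxes, HMGCS1 holds 2 and INSIG1 holds 1, while the IDI1 window holds none, although windows at its other 2 listed starts hold 3 and 2. INSIG1 has 5 GC boxes, of which a pair overlap.

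NF-Y, which binds CCAAT, is known to act with SREBP at many sterol promoters. Promoter entries were matched for 27 of the 30 genes, all but ACAT2, FDFT1 and SQLE. CCAAT stood in at least 1 window of 70.4% of these 27 genes and of 37.0% of all 27305 genes in the table, and GGGCGG in 92.6% and 46.2%. The sterol response element core TCACNCCAC was found for 1 of the 27, SREBF2, and for 1.09% of all genes. All 6 risers with an entry had both CCAAT and GGGCGG, as did many that were not called, with CCAAT in 12 and GGGCGG in 16 of 18. A match is a description of the letters in the window and not a bound site.

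The 3 fibrillar arrays differed among themselves more than the controls did. In all 8 risers replicate 1 was the highest and replicate 2 the lowest fibrillar array. The same order held for 17 of the 26 genes and for 17.4% of all genes tested (52.1% of the 94 genes that rose). The mean of the 26 genes lay 0.51, 0.13 and 0.33 above the control mean in replicates 1, 2 and 3, with 22, 17 and 20 genes above it. In the 3 controls that mean lay between −0.03 and 0.04. Among the 8 risers the median SD was 0.42 with fibrils and 0.06 in the 24 h controls, against 0.14 and 0.13 over all genes.

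A measure of RNA quality had the same order. The 3′ less 5′ log2 signal of the control transcripts, averaged over GAPDH and ACTB, was 1.94, 1.48 and 1.71 in fibrillar replicates 1, 2 and 3 and 1.43, 1.53 and 1.58 in the 24 h controls. Between these groups GAPDH differed by 0.15 and ACTB by 0.25 (two-sided exact permutation test, p = 0.3 in both, and no comparison of 3 with 3 can go under 0.1). In the 6 h controls the averaged measure was 2.04, 1.81 and 1.80. With this measure as a covariate, HMGCS1 (0.94, adjusted p = 0.0264 by limma) and MSMO1 (0.75, adjusted p = 0.0432) stayed called. The other 6 risers had changes of 0.29 for STARD4 to 0.71 for INSIG1, with adjusted p-values of 0.11 to 0.17. Beyond this fit, the part of RNA quality in the result was not tested.

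**Figure D3:**
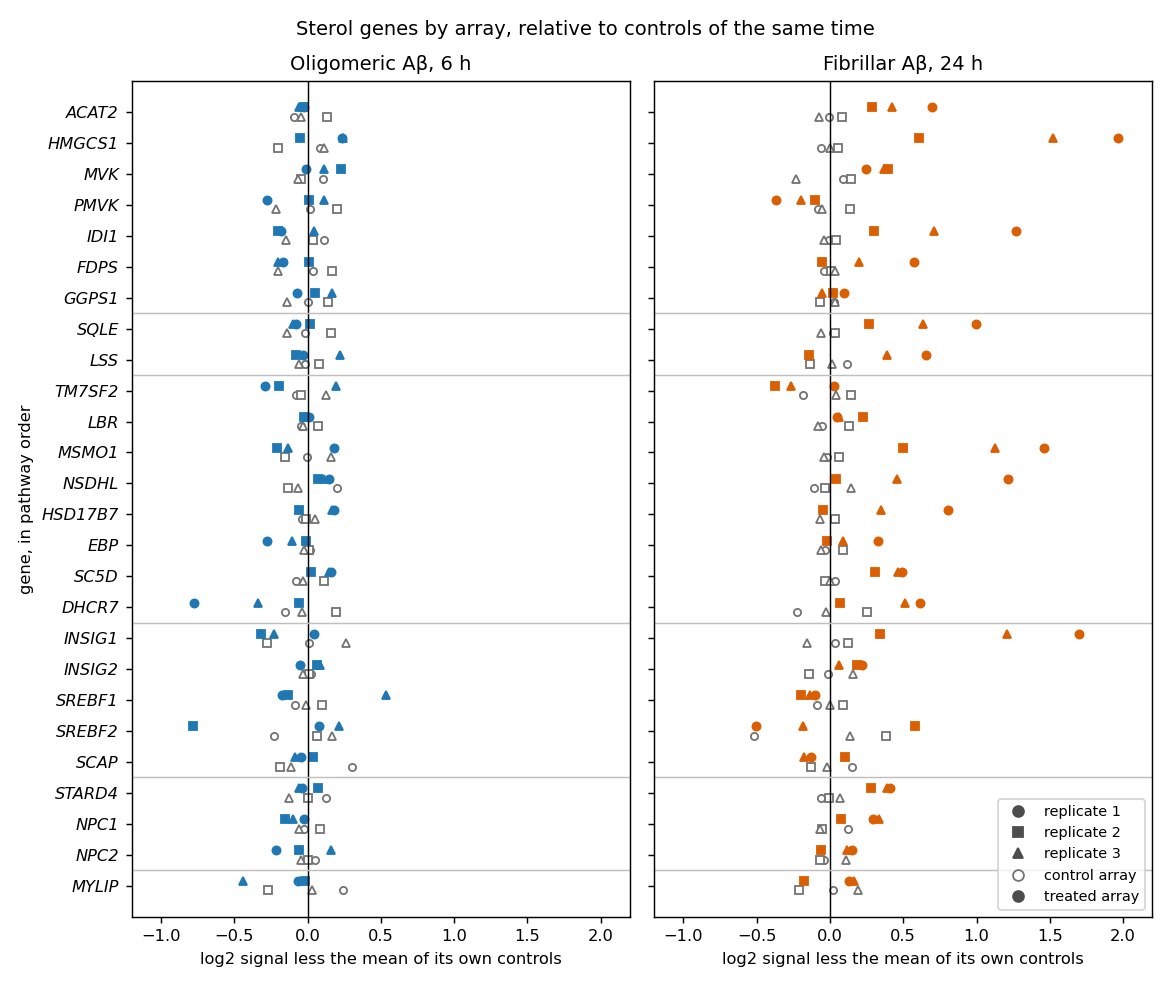
Log2 signal of each of the 26 sterol genes less the mean of the 3 controls of the same hours, for oligomeric Aβ at 6 h (left) and fibrillar Aβ at 24 h (right). Filled points are treated arrays and open points controls, with a marker for each replicate. In the right panel the circles (replicate 1) reach 1.96 for HMGCS1 while the squares (replicate 2) stay closer to the controls, at 0.61 for that gene.

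The count of risers depended on single arrays. It was 2 without fibrillar replicate 1, 11 without replicate 2 and 0 without replicate 3, and it was 0, 3 and 2 without 24 h control replicates 1, 2 and 3. The count over all genes moved too. In place of 94 it was 43, 140 and 12 without fibrillar replicates 1, 2 and 3. Without the 24 h control replicates it was 8, 46 and 20. HMGCS1 and MSMO1 were called in 4 of these 6 fits each, ACAT2 in 2 and the other 5 in 1. The genes added without fibrillar replicate 2 were NSDHL (0.84, adjusted p = 0.0194 by limma), HSD17B7 (0.58, 0.0194) and LSS (0.52, 0.0391). In every riser all fibrillar arrays lay above all controls, so leaving out an array could not turn its direction. Across these 6 fits the change ran from 1.06 to 1.74 for HMGCS1 and from 0.33 to 0.40 for STARD4. The fit pools each gene's spread over all 4 groups. With the 24 h arrays alone MSMO1 was the only member that passed (adjusted p = 0.0397 by limma).

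**Figure D4:**
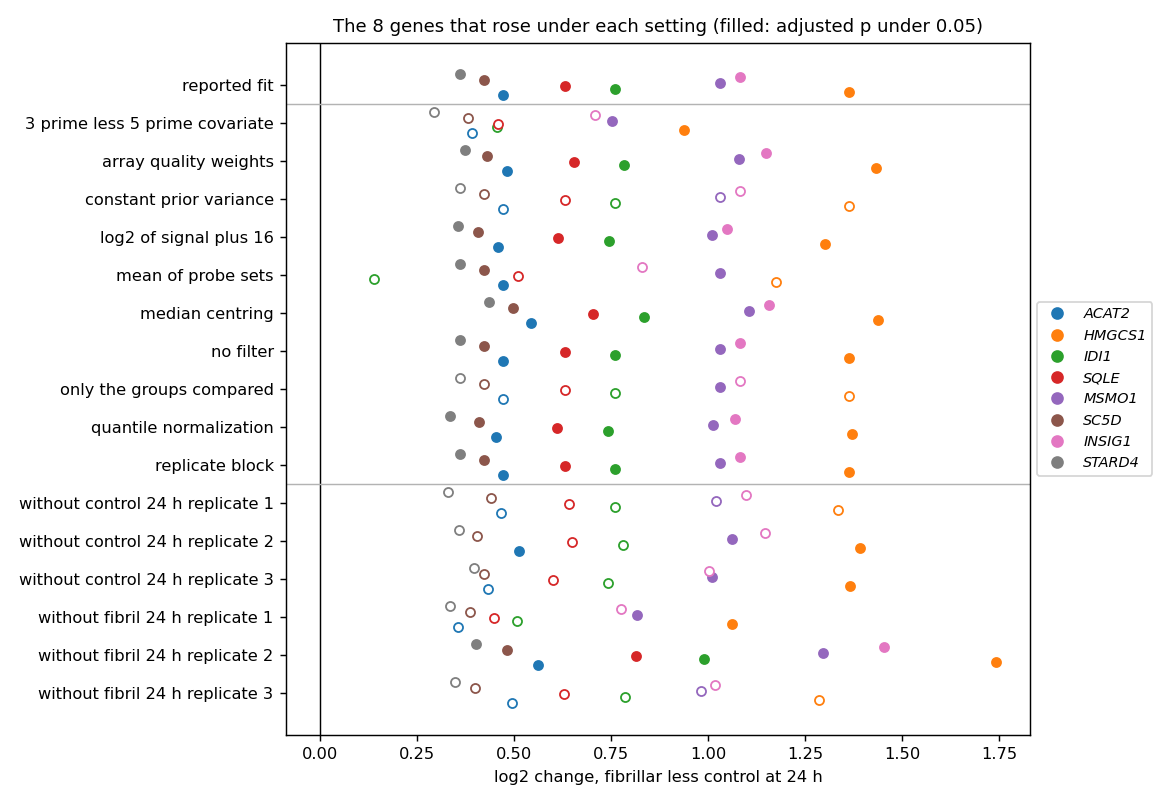
Log2 change between fibrillar and control arrays at 24 h for the 8 genes that rose, in the reported fit (top line), under 10 other settings (middle) and with each 24 h array left out (bottom). Filled points have an adjusted p under 0.05. Every point lies to the right of 0, as the bottom ones had to with groups fully apart. The lowest is IDI1 at 0.14 as the mean of its probe sets.

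Dimmer probe sets above the filter were read for 12 of the genes. Of 20 such probe sets, 13 changed with fibrils in the direction of the brightest and 7 in the opposite one. The opposite ones belonged to IDI1, MYLIP, NPC1 and SREBF2. INSIG1 had changes of 1.04 and 0.36 at its other 2 probe sets above the filter, next to 1.08 at the brightest, and the values of SQLE were 0.36, 0.56 and 0.49 next to 0.63. The other probe set of HMGCS1 gave 0.99 (SE 0.35) and that of DHCR7 gave 0.65 (SE 0.21). Fibrillar and control values overlapped for this HMGCS1 probe set and for the INSIG1 and SQLE ones at 0.36. IDI1 was divided: its 2 bright probe sets gave 0.76 and 0.73, and its 2 dimmer ones −0.49 and −0.44. Its groups lay apart at 0.76, with fibrils higher, and at −0.44, with fibrils lower. They overlapped at 0.73 and at −0.49. As a mean over its 4 probe sets IDI1 changed by 0.14 (adjusted p = 0.665 by limma). In that setting the calls of HMGCS1 (1.18, adjusted p = 0.0626), INSIG1 (0.83, 0.157) and SQLE (0.51, 0.19) were also lost.

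**Figure D5:**
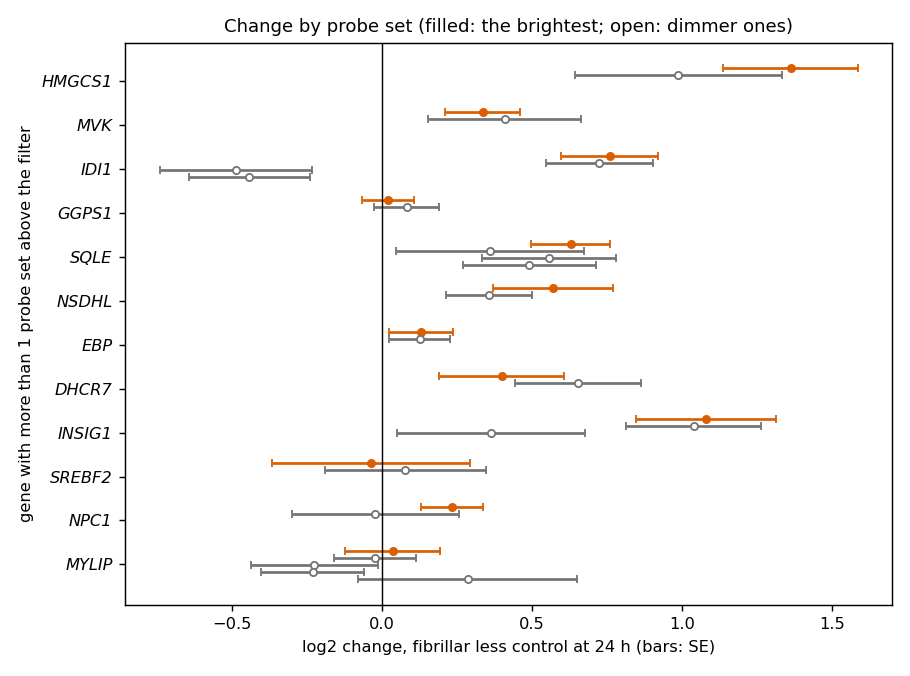
Log2 change between fibrillar and control arrays at 24 h, with its standard error (bars), for every probe set above the filter of the 12 sterol genes that have more than 1. Orange points are the brightest probe set of each gene and open points the dimmer ones, and IDI1 shows points on both sides of 0, from −0.49 to 0.76.

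Oligomeric Aβ gave no call among the sterol genes. With limma 0 of 26 rose or fell, as did 0% of all genes, and 0 of the 26 had an unadjusted p under 0.05, where 2.78% of all genes did. The median change was −0.04, from −0.39 for DHCR7 to 0.14 for HMGCS1, with 9 changes above 0 and 17 below (48.2% and 51.8% of all genes), and for no member did the oligomeric values lie wholly to a side of the 6 h controls (3.6% of all genes lay above and 3.76% below). HMGCS1 read 7.84, 7.55 and 7.85 with oligomers and 7.69, 7.41 and 7.72 in the controls. MSMO1 read 9.25, 8.86 and 8.93 against 9.06, 8.91 and 9.22, and INSIG1 8.10, 7.73 and 7.82 against 8.06, 7.77 and 8.31. In each of these genes the groups overlapped. The 95% intervals of these changes were −0.33 to 0.62, −0.41 to 0.31 and −0.66 to 0.33, so smaller shifts in either direction were not detectable. For DHCR7 the oligomeric values were 5.25, 5.96 and 5.69 and the controls 5.87, 6.21 and 5.98, with replicate 1 lowest. The counts above are of the brightest probe sets. Of 20 dimmer ones above the filter, 13 changed in the direction of the brightest and 7 in the opposite one. That of NSDHL lay wholly lower with oligomers (−0.32, unadjusted p = 0.041 by limma), against 0.11 at the brightest. A dimmer SQLE probe set differed by 0.52 (unadjusted p = 0.034 by limma), with overlapping groups.

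The difference between the fibrillar and the oligomeric response was tested in itself, with aggregate form and hours confounded. None of the 26 passed with limma (0.00849% of all genes did so upwards and 0.034% downwards, 1 and 4 genes, or 12 and 1 after median centring). Of the 26, 10 had an unadjusted p under 0.05, as did 8.53% of all genes. The difference was above 0 for 21 and below for 5 (51.8% and 48.2% of all genes). The largest differences were those of INSIG1, 1.25 (SE 0.33, adjusted p = 0.217), HMGCS1, 1.22 (SE 0.32, adjusted p = 0.212), and MSMO1, 1.08 (SE 0.24, adjusted p = 0.122). Without fibrillar replicate 2 the difference was called for 5 members, HMGCS1, IDI1, SQLE, MSMO1 and INSIG1, with adjusted p-values up to 0.0116. Over all genes it was then called upwards for 53 and downwards for 11. With array weights, which keep all 12 arrays, it was called among the members for MSMO1 alone (1.17, adjusted p = 0.0370). Of all genes 18 were then called upwards and 9 downwards. In the reported fit the rise with fibrils is not shown to differ from the oligomeric change.

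None of the sterol genes was called between the control groups at its brightest probe set. From 6 h to 24 h 0 of 26 passed with limma, where 3.76% of all genes rose and 7.92% fell (443 and 932 genes, or 140 and 1769 after median centring). An unadjusted p under 0.05 was seen for 6 of them and for 26.6% of all genes. The 24 h values lay wholly above for 3 members and wholly below for 5, against 13.7% and 18.9% of all genes, and 17 changes were above 0 and 9 below (47.4% and 52.6%). The lowest adjusted p was that of NPC1, 0.0571, at 7.42, 7.24 and 7.23 at 24 h and 7.59, 7.70 and 7.55 at 6 h, a change of −0.32 (SE 0.10). LBR differed by −0.21 (SE 0.07, adjusted p = 0.0760), and was called without 24 h control replicate 2 (−0.27, adjusted p = 0.0338). TM7SF2 differed by 0.52 (SE 0.20, adjusted p = 0.1). HMGCS1 differed by 0.10 (SE 0.22) and MSMO1 by 0.05 (SE 0.17). SQLE differed by −0.19 (SE 0.13) at its brightest probe set, and its dimmer ones were divided. In a fit of single probe sets 1 gave 0.81 (SE 0.22, adjusted p = 0.0315 by limma), with the 24 h values wholly higher. Another gave −0.76 (SE 0.31) with the 24 h values wholly lower, and the last gave 0.11 (SE 0.22). With the 3′ less 5′ measure as a covariate, 5 members were called as higher at 24 h and 0 as lower. Of all 11774 genes 159 were called as higher and 308 as lower in that fit. They were HMGCS1 (0.90, adjusted p = 0.0268 by limma), INSIG1 (1.02, 0.0422), IDI1 (0.64, 0.0322), HSD17B7 (0.63, 0.0422) and NSDHL (0.63, 0.0465), of which the former 3 also rose with fibrils. NSDHL had differed by −0.11 without the covariate. The measure did not overlap between the control groups, so hours and RNA quality cannot be told apart in that fit. The 24 h controls are shared with the fibrillar comparison and the 6 h controls with the oligomeric. After median centring the median change of all genes was −0.15 here and 0.15 in the difference of the responses, against −0.02 and 0.01 without it. LBR (−0.34, adjusted p = 0.00776 by limma), NPC1 (−0.45, 0.0223) and SCAP (−0.46, 0.0349) were called in that setting.

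Other lipid genes were read from lists beside the members. None of the 73 tested genes in these 6 lists was called with fibrils by limma. Of them 11 had an unadjusted p under 0.05, a pooled share close to the 14.2% of all genes. The 11 were not spread evenly: 5 were among the 9 further SREBP2-linked genes below. Of 14 genes of fatty acid synthesis, many of them SREBP1 targets, the median change was 0.02, from −0.35 to 0.37. In 3 of them, named after their values were seen, the groups lay apart with the fibrillar side higher, and in 0 with it lower (10.9% and 8.73% of all genes): SCD, which makes monounsaturated fatty acids (0.37, SE 0.11, adjusted p = 0.125), ACLY, which supplies cytosolic acetyl-CoA (0.22, SE 0.07), and ELOVL5, an elongase (0.26, SE 0.08). Of 9 further SREBP2-linked genes the median was 0.22, and 8 changes were above 0. The groups lay apart with the fibrillar side higher in 3 and lower in 1, against the same 10.9% and 8.73% of all genes. The 3, also named afterwards, were PCYT2 (0.54, SE 0.19), ALDOC (0.39, SE 0.15) and LRP8 (0.24, SE 0.09). ACAT1, the mitochondrial thiolase, lay apart on the lower side (−0.17, SE 0.07).

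The remaining lists lay close to the median of all genes. The median was −0.0022 for 14 genes of SREBP cleavage and sterol-driven degradation, −0.02 for 14 genes that use isoprenoids, 0.02 for 17 genes of sterol storage, oxidation and exchange, and −0.03 for 5 LXR and efflux genes. With oligomers 0 of the 73 passed by limma, and 1 had an unadjusted p under 0.05. Over time in the controls LPIN1, a phosphatidate phosphatase, rose by 0.34 (SE 0.09, adjusted p = 0.0226 by limma). VCP, an ATPase that pulls proteins out of the endoplasmic reticulum, fell by 0.53 (SE 0.09, adjusted p = 0.00111) and NFYC, an NF-Y subunit, fell by 0.47 (SE 0.11, adjusted p = 0.0131).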

How the data were processed

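What the authors deposited is a log2 signal for each probe set. The submitters' processing notes name MAS5 without a version. A trimmed mean of linear signal (2% to 98%) was equal on all 12 arrays, so each had been scaled to a single target by the authors before the log2 was taken, and the values were used as deposited. Detection calls were not used here. Symbols came from GEO's platform annotation, updated by gene identifier to current RefSeq symbols. A gene was represented by its brightest probe set among those with exactly 1 symbol, and kept where the mean reached the median of all probe sets (log2 3.78).

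A group-means model over all 12 arrays was fitted with limma 3.58.1 in R 4.3.3 with eBayes (trend in the prior variance) and Benjamini-Hochberg adjustment over 11774 genes. The procedure was tested on simulated data. The members and lists were chosen with earlier results of these data known. Each member is named, with full statistics where called, and up to 3 called genes in each direction from each other list. Alternatives were quantile normalization, median centring, no filter, the mean of probe sets, a constant prior variance, the compared groups alone, array weights, the replicate number as a block, the 3′ less 5′ measure as a covariate, log2 of the signal plus 16, and each array left out.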

Additional observations from a re-analysis of the deposited data

How the results depend on the processing

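Of the members with fibrils, 8 rose in the reported fit, and as many with quantile normalization, median centring, no filter, array weights, the signal plus 16 and the replicate block. The count was 4 when probe sets were averaged, 2 with the 3′ less 5′ covariate, 1 with the compared groups alone and 0 with a constant prior variance, and 0 to 11 with single arrays left out. None fell in any of these settings, and the 8 changes stayed above 0 in all of them. With an array left out they could not do otherwise, since the groups lay fully apart. Over all genes the number that rose, 94, ran from 4 with a constant prior variance to 181 with array weights. For the difference of the responses, 1 member was called with array weights and 0 to 5 with arrays left out. For the 24 h against the 6 h controls, the number that fell was 2 with array weights, 3 with median centring and 1 with the replicate block. Over all genes these settings gave 1159, 1769 and 1037. With arrays left out 0 to 1 members fell. The number of members that rose was 5 with the covariate, where 159 of all genes did. Among those 5, HMGCS1 moved from 0.10 to 0.90, INSIG1 from 0.32 to 1.02, IDI1 from 0.07 to 0.64, HSD17B7 from 0.19 to 0.63 and NSDHL from −0.11 to 0.63, which turned its direction (limma adjusted p = 0.0465). The measure did not overlap between these control groups, at 1.43 to 1.58 at 24 h and 1.80 to 2.04 at 6 h. The changes with the covariate therefore lean on a slope fitted within the groups. Hours and RNA quality cannot be told apart here, and the cause was not tested. With oligomers 0 members were called in every setting run. No label ties equal replicate numbers to a common culture, and the correlation of deviations between same-numbered fibrillar and control arrays was 0.03, 0.07 and 0.07, so the block is given as a setting and not as a pairing. Among dim members (SREBF1, SREBF2, TM7SF2 and DHCR7) the standard errors with fibrils were 0.20 to 0.33, against a median of 0.13 over all genes. The compared groups alone were not run for the difference, which needs all 4.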
